A study of Mus musculus with 16 samples.

Results

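The genes described here are the constitutive proteasome genes of the mouse heart and the assembly chaperones, activators and inhibitor that share their naming scheme. They were chosen by symbol alone: Psm, a letter from a to g, and a number. Of the 18346 genes in the deposited count table, 50 matched, and 45 were kept after Psmb8, Psmb9, Psmb10, Psme1 and Psme2 were set aside as the inducible set. All 45 had enough counts to be tested, among 13373 tested genes. The 45 hold the 7 alpha and 7 beta subunits of the constitutive 20S core, the 6 ATPases and 11 non-ATPases of the 19S particle, 7 assembly chaperones, 3 activators or inhibitors and 4 others. The first 4 of these classes, 31 genes, are called the core subunits below. The 4 others match the letters without being subunits of the standard particle: Psma8, a germ-line 20S subunit, Psmc3ip and Psme3ip1, named as partners of proteasome genes, and Psme2b, a copy of Psme2. Psmb11, the thymus subunit, fits the rule but was not among the genes of the count table.

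Hearts came from c57bl/6j wild-type mice (WT) and from mice with a systemic Armh4 knockout (KO), killed at 8 weeks of age (the young groups) or at 25 months (the aged groups). Each of the 4 groups gave 4 independent biological replicates, so 16 hearts were sequenced in bulk. The labels do not say how the knockout allele was made, nor whether KO mice were littermates of the WT mice. A heart is named by its group and animal number, such as WT_Aged_1. In bulk RNA a smaller number of cells of one type and less RNA per cell cannot be told apart.

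The proteasome is the protease that degrades proteins tagged with ubiquitin. Its barrel, the 20S core, is built of alpha rings, which gate the entrance, and beta rings, of which Psmb6, Psmb7 and Psmb5 carry the active sites. The 19S particle caps the barrel, binds ubiquitin, removes it and unfolds the substrate with a ring of ATPases. Interferon induces Psmb9, Psmb10 and Psmb8, which replace Psmb6, Psmb7 and Psmb5 in newly built cores to form the immunoproteasome. In heart muscle the proteasome clears damaged and misfolded sarcomere proteins.

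Proteasome genes are known targets of Nfe2l1, which binds antioxidant response elements, and of the NF-Y factor, which binds CCAAT boxes. The 200 bases before the RefSeq start are therefore shown for 4 members, with TGACNNNGC (the antioxidant response element core) and CCAAT in capitals on either strand, so that ATTGG marks a CCAAT on the other strand. Psmc1 and Psmd4 are shown because they rose in aged WT hearts, and Psmb5 and Psmb6 because they are catalytic subunits that did not pass the test. Psmd7, which also rose, and Psmb7, the remaining catalytic subunit, are not shown because no promoter sequence was found for them.
Psmc1, chr12:100110002-100110201, plus strand, GRCm38.p6: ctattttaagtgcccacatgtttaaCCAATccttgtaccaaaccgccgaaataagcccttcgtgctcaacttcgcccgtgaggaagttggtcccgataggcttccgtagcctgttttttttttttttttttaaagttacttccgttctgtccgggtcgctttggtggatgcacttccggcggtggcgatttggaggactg
Psmd4, chr3:95042615-95042814, minus strand, GRCm38.p6: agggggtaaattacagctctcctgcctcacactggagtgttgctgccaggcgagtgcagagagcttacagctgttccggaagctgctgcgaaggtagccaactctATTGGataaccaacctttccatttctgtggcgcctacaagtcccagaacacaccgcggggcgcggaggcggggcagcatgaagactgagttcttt
Psmb5, chr14:54617996-54618195, minus strand, GRCm38.p6: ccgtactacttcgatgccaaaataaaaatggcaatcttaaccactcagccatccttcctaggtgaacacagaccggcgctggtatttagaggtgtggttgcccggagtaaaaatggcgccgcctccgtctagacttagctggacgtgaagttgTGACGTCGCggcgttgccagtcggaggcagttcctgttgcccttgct
Psmb6, chr11:70525157-70525356, plus strand, GRCm38.p6: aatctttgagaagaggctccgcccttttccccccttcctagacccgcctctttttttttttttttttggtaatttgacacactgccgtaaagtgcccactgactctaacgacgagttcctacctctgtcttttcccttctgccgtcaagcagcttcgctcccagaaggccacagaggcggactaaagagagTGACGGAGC
Windows of 250 bases before to 50 after the start were found for 37 of the 45 members. TGACNNNGC was present in 6 of the 37 (16.2%), against 13.99% of all 27025 genes with a window and 17.01% of the 10625 tested genes with one. CCAAT was present in 14 of the 37 (37.8%), against 41.1% of all and 42.9% of tested genes. The 6 members with TGACNNNGC were Psmb5, Psmb6, Psmc6, Psmd12, Psmd9 and Psme4. Among all members with a window only Psmc1 and Psmd4 passed the test by edgeR in any comparison, too few to set motifs beside results. Psmc1 held 1 CCAAT, which began 175 bases before the start, and Psmd4 held 3, of which 1 lies in the printed stretch. These matches describe letters in a window and are not measured binding sites.

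Total counts were 11456503 to 13298660 per heart, of which the 45 genes took 0.418% to 0.505%. Armh4, the targeted gene, stood at 12.7 to 20.3 CPM (counts scaled to a common library size) in the 8 WT hearts and at 0.0825 to 1.68 CPM in the 8 KO hearts, with no overlap. All 9 cardiomyocyte markers, among them Myh6, Actc1 and Tnnt2, were expressed, with a summed level of 74199 to 102355 CPM per heart, and none was at 0 in all hearts. Differences below are log2 changes fitted by the quasi-likelihood method of edgeR, with p adjusted over all 13373 genes by the Benjamini-Hochberg method. Rose and fell are used only for an adjusted p under 0.05.

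The core subunits were all well expressed in the heart and can be ranked by their level per gene length. In FPKM (fragments scaled for gene length and library size by the authors), the mean over the 16 hearts ran from 48.3 for Psmd14, the deubiquitinase of the 19S particle, to 281 for Psmb7, the trypsin-like active site. Psmb7 stood above every other member in every heart: its lowest heart was at 263 FPKM, and the highest heart of any other member was at 246 FPKM, for Psma6 in WT_Aged_1. Below it came Psmb4 at 197 ± 17.97 (SD, n = 16), Psmc3 at 196 ± 15.2, Psmb5 at 188 ± 18.3, Psma6 at 187 ± 20.2 and Psmb3 at 184 ± 15.6 FPKM, whose ranges overlapped one another. By class, the median member stood at 124 FPKM for the alpha ring, 159 for the structural beta subunits, 188 for the 3 catalytic ones, 107 for the 19S ATPases and 80.0 for the 19S non-ATPases. The assembly chaperones, which leave the finished particle or act on its parts, were lower, at 8.85 FPKM for Psmd9 to 32.8 FPKM for Psmg2. Psmf1, the inhibitor PI31, stood at 7.79 FPKM.

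**Figure D1:**
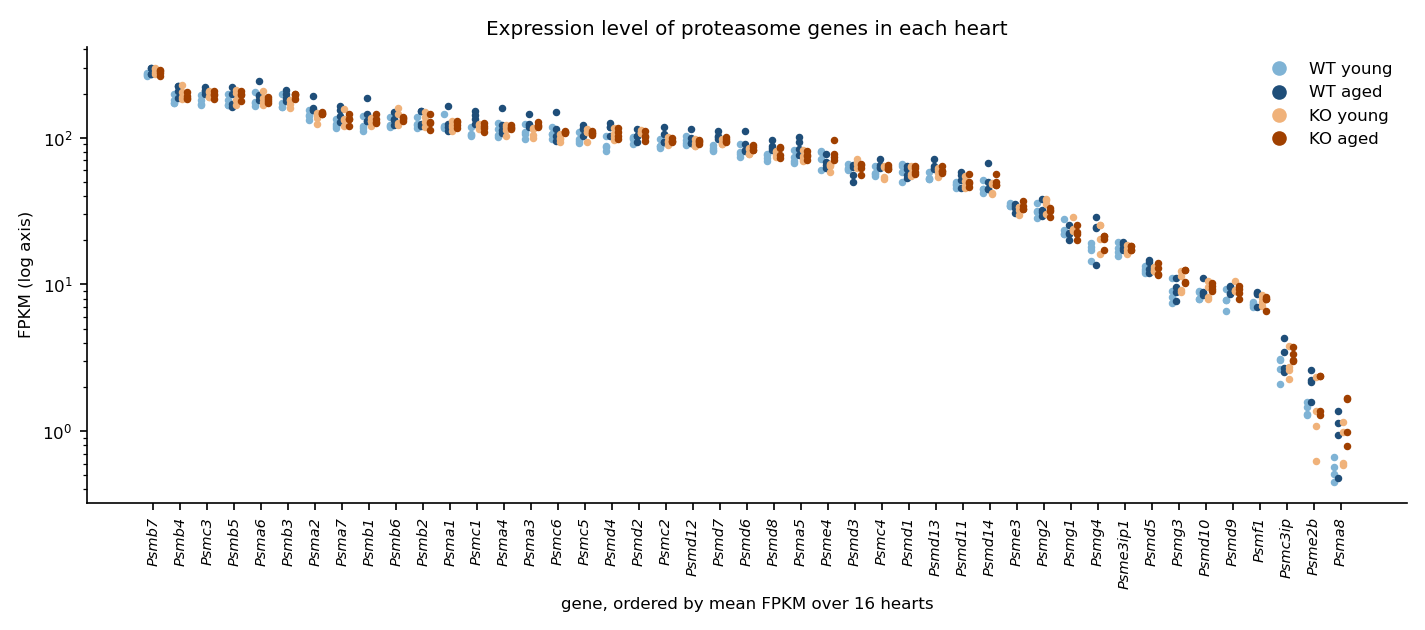
FPKM (log axis) of the 45 genes in each of the 16 hearts, coloured by group and ordered by mean. Psmb7 lies apart at the top, the other core subunits lie between means of 48.3 and 197 FPKM, and Psmc3ip, Psme2b and Psma8 lie lowest.

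In aged WT against young WT hearts 3 of the 45 genes rose and none fell, and all 3 belong to the 19S particle. They were Psmc1, the Rpt2 ATPase whose tail helps open the gate of the core, Psmd4, the Rpn10 ubiquitin receptor, and Psmd7, the Rpn8 scaffold that pairs with the deubiquitinase Psmd14. Their folds were 1.22, 1.24 and 1.16. In this comparison 21.7% of all tested genes were called (11.8% higher, 9.93% lower), so a count of 3 in 45, 6.67%, lay below the share over all genes. At an unadjusted p under 0.05 by edgeR there were 10, beside 4679 of all 13373 tested genes. DESeq2 called 4, adding Psmd13, and limma on log2(FPKM + 1) called 7, adding Psma5, Psmc3, Psmd13 and Psmd8. Over all genes these 2 tools called 17.5% and 20.2%. The count was 1 without WT_Young_39 and 5 without WT_Young_29.

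Psmc1 was at 144, 129, 139 and 135 CPM in the 4 young WT hearts and at 182, 150, 177 and 160 CPM in the 4 aged WT hearts. The lowest aged heart lay above the highest young heart. Its log2 change was 0.29 ± 0.08 (SE; adjusted p = 0.0100), and it stayed past the threshold when any single heart was left out. In KO hearts it stood at 145, 153, 147 and 162 CPM when young and at 152, 142, 133 and 144 CPM when aged. These groups overlapped, and the log2 change was -0.09 (95% interval -0.25 to 0.07).

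Psmd4 was at 108, 93.8, 93.5 and 97.7 CPM in young WT hearts and at 123, 124, 136 and 107 CPM in aged WT hearts. WT_Aged_12 fell just below WT_Young_29, so the groups overlapped by 1 heart on each side. The log2 change was 0.31 ± 0.09 (SE; adjusted p = 0.0146), and without WT_Young_39 the adjusted p was 0.0502. KO hearts stood at 104 to 126 CPM when young and 103 to 123 CPM when aged.

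Psmd7 was at 117, 109, 118 and 117 CPM in young WT hearts and at 143, 133, 131 and 129 CPM in aged WT hearts, with no overlap. The log2 change was 0.22 ± 0.07 (SE; adjusted p = 0.0319). This call was lost without WT_Young_34, WT_Young_39 or WT_Aged_1 (adjusted p up to 0.0783), when no filter on low counts was used (0.0642) and when only WT hearts entered the fit (0.0637). Young KO hearts stood at 121 to 140 CPM and aged KO hearts at 121 to 131 CPM.

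**Figure D2:**
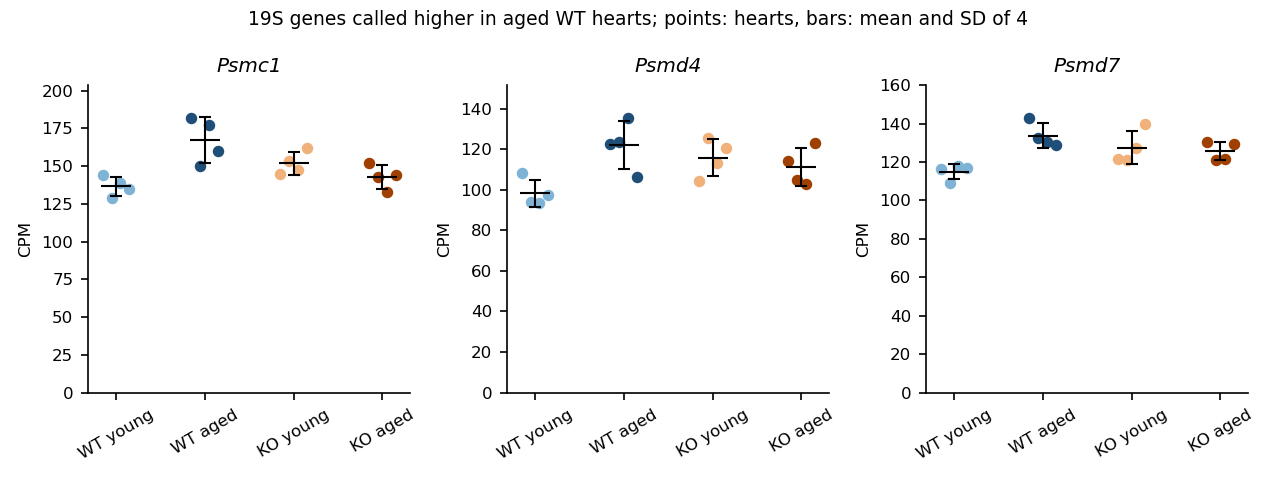
CPM of Psmc1, Psmd4 and Psmd7 in each heart, with the mean and SD of 4 hearts per group on axes that start at 0. For Psmc1 the aged WT hearts, at 150 to 182 CPM, all lie above the young WT hearts, at 129 to 144 CPM, while aged and young KO hearts overlap.

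The remaining 19S subunits did not pass the test in aged WT hearts. All 6 ATPases had positive log2 changes, from 0.03 for Psmc6 to the 0.29 of Psmc1, with a median of 0.14. Psmc3 (Rpt5), the most abundant ATPase, had a mean of 250 ± 14.1 CPM over young WT hearts and 280 ± 15.3 CPM over aged ones (SD, n = 4; log2 change 0.16, adjusted p = 0.125). Of the 11 non-ATPases 8 were positive and 3 negative, with a median of 0.11. Psmd13 (Rpn9) came closest to the threshold among those that missed it, at 0.20 (adjusted p = 0.0537). The 3 negative ones were Psmd3 (Rpn3) at -0.16, Psmd1 (Rpn2) at -0.10 and Psmd12 (Rpn5) at -0.0041.

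No 20S gene was called in aged WT hearts by edgeR or by DESeq2, with 3 of the 14 at an unadjusted p under 0.05, and limma on FPKM called Psma5. The 7 alpha subunits ran from -0.02 for Psma1 to 0.21 for Psma5 (adjusted p = 0.0843), with a median of 0.15. The 4 structural beta subunits ran from 0.06 for Psmb2 to 0.21 for Psmb1, with a median of 0.11. The 3 catalytic subunits had the smallest median of the 20S classes, 0.01, with Psmb5 at 0.00 (95% interval -0.20 to 0.21), Psmb6 at 0.04 (-0.14 to 0.22) and Psmb7 at 0.01 (-0.15 to 0.16).

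The catalytic subunits and their inducible counterparts separated in aged WT hearts. Psmb5, the chymotrypsin-like site, was at 198, 168, 182 and 167 FPKM in young WT hearts and at 223, 199, 162 and 170 FPKM in aged WT hearts. Psmb8, its counterpart, was at 13.7, 12.2, 11.6 and 15.3 FPKM in young and at 47.0, 60.2, 99.5 and 28.2 FPKM in aged WT hearts. The Psmb5 groups overlapped and the Psmb8 groups did not. Psmb8 rose by 2.09 ± 0.31 on the log2 scale (SE; adjusted p = 0.000346), Psmb9 by 2.21 ± 0.35 (adjusted p = 0.000411), Psmb10 by 1.19 ± 0.30 (adjusted p = 0.0128) and Psme2, the PA28 beta activator, by 0.83 ± 0.20 (adjusted p = 0.00663), all by edgeR. Psme1, PA28 alpha, was at 0.42 (adjusted p = 0.101). Psmb10 was not called when only WT hearts entered the fit (adjusted p = 0.0687).

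As a ratio of FPKM within a heart, Psmb8 to Psmb5 stood at 0.0742 ± 0.0122 in young WT and 0.323 ± 0.201 in aged WT hearts (SD, n = 4). The ratio was 0.101 ± 0.00601 in young KO and 0.102 ± 0.0201 in aged KO hearts. Psmb9 to Psmb6 went from 0.0751 ± 0.00757 to 0.339 ± 0.185 in WT hearts and stood at 0.0823 ± 0.0221 and 0.0981 ± 0.0242 in young and aged KO hearts. Psmb10 to Psmb7 went from 0.140 ± 0.0148 to 0.310 ± 0.161 in WT hearts and stood at 0.143 ± 0.0155 and 0.153 ± 0.0197 in KO hearts. The highest ratio of all 3 pairs was in WT_Aged_5, at 0.613, 0.579 and 0.534, and the lowest aged WT ratio of all 3 was in WT_Aged_12.

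None of the 12 comparisons of these ratios passed 0.05 after adjustment, with an exact two-sided permutation test over hearts whose smallest possible p is 0.0286. Adjusted over 12 comparisons, a p of that size stays above 0.05 unless most of the 12 reach it. Complete separation of the hearts in a single comparison could therefore not pass. In WT ageing all 3 pairs were at that smallest p (adjusted p = 0.0571), with log2 differences of 1.95 for Psmb8 to Psmb5, 2.02 for Psmb9 to Psmb6 and 1.02 for Psmb10 to Psmb7. Every aged WT heart lay above every young WT heart in each pair. Aged KO hearts differed from aged WT hearts by -1.50, -1.66 and -0.89 in the same order (exact permutation adjusted p = 0.0571, 0.0571 and 0.0980). Psmb8 to Psmb5 was also higher in every young KO heart than in every young WT heart, by 0.46 (exact permutation p = 0.0286, adjusted p = 0.0571).

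**Figure D3:**
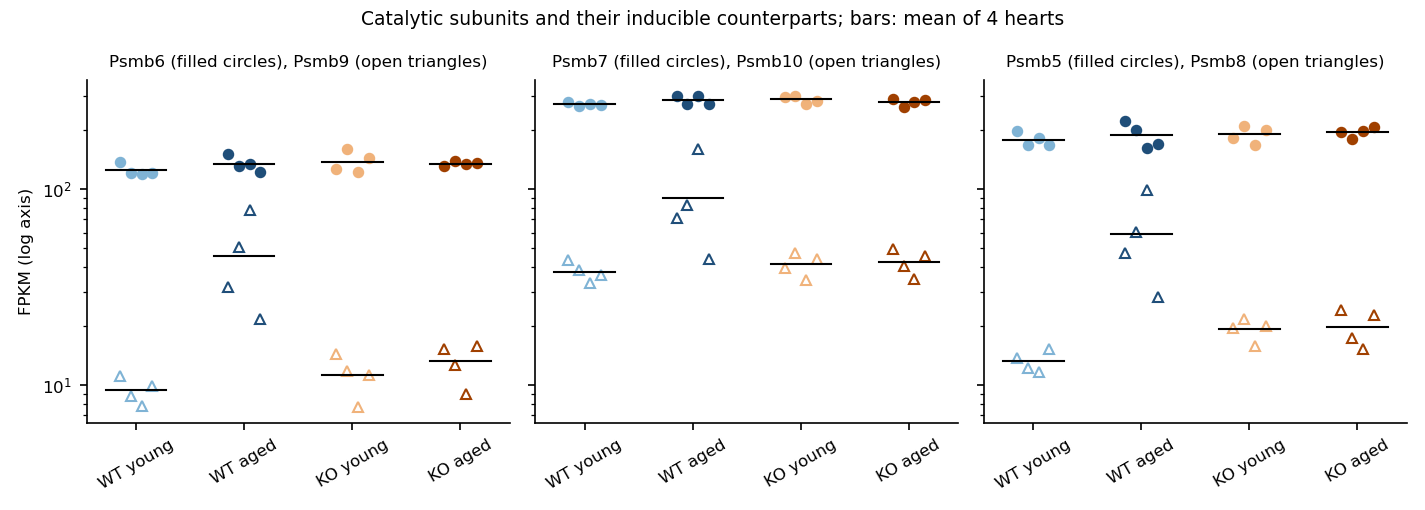
FPKM (log axis) of each catalytic subunit (filled circles) and its inducible counterpart (open triangles) in each heart, with bars at the mean of 4 hearts. The filled circles of the 4 groups overlap, while the triangles of the aged WT hearts spread upward, to 99.5 FPKM for Psmb8 in WT_Aged_5.

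Macrophage, neutrophil and erythroid markers and genes of the interferon response were also higher in aged WT hearts, while markers of some other cells were not. The summed macrophage list (Adgre1, Csf1r, Cd68 and 7 more) stood at 244 to 356 CPM in young WT, 742 to 1160 in aged WT, 294 to 362 in young KO and 551 to 637 in aged KO hearts, and 10 of its 10 genes rose in WT ageing and 8 of 10 in KO ageing, where 0 of the 5 inducible genes were called (median log2 change 0.81 for the macrophage list and -0.03 for the inducible genes). The interferon response list (Gbp2, Irf1, B2m and 4 more) stood at 276 to 372, 658 to 1503, 328 to 441 and 334 to 490 CPM in the same groups, with 7 of 7 rising in WT ageing and 0 of 7 called in KO ageing by edgeR, DESeq2 or limma on FPKM (0 at an unadjusted p under 0.05). The neutrophil list stood at 2.68 to 4.02 CPM in young WT and 23.7 to 36.8 CPM in aged WT hearts, and the erythroid list at 528 to 715 and 1020 to 2209 CPM. No gene of these lists was at 0 in all hearts. The summed cardiomyocyte list went from 89964 to 102166 CPM in young WT to 74199 to 89349 CPM in aged WT hearts, with 3 of 9 genes falling. In each of the smooth muscle and pericyte, fibroblast and endothelial lists 2 of 7 genes fell in WT ageing and none rose. Their median log2 changes were -0.87, 0.04 and 0.02. The 4 atrial markers were all negative with none called (median -2.68), and 2 of 3 tested T and NK cell genes rose. In young KO against young WT hearts the atrial markers had a median of 2.41, also with none called. Their summed level was 155 to 377 CPM in young WT, 62.7 to 412 in aged WT and 170 to 591 in young KO hearts. The other immune and blood lists were mixed in KO ageing. There 2 of 4 tested neutrophil genes rose (median log2 change 1.496). None of the 6 tested erythroid genes (median 0.506) or the 3 tested T and NK cell genes (median 0.101) was called. The part of cell makeup in the proteasome values was not tested.

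The chaperones that build the particle did not pass the test in any comparison. The 19S chaperones Psmd5, Psmd9 and Psmd10 were at 0.01, 0.15 and 0.06 in WT ageing. The 20S chaperones Psmg1, Psmg2, Psmg3 and Psmg4 were at -0.15, -0.03, -0.01 and 0.31. Psmg2, which forms a dimer with Psmg1 that scaffolds the alpha ring, was at 30.2 ± 2.98 CPM in young KO and 25.3 ± 1.69 CPM in aged KO hearts (SD, n = 4), a log2 change of -0.25 (unadjusted p = 0.0152, adjusted p = 0.118 by edgeR). Psmd9 was 0.25 higher in young KO than in young WT hearts (adjusted p = 0.361). Pomp, the maturation factor of the core and no member, rose in aged WT hearts by 0.38 (adjusted p = 0.0196), which was not called when only WT hearts entered the fit (0.0543) or without WT_Young_39, WT_Aged_1 or WT_Aged_5 (up to 0.0624).

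Psme4, the PA200 activator, did not pass the test in any comparison. It was at 361, 501, 522 and 453 CPM in young WT hearts and at 379, 366, 422 and 455 CPM in aged WT hearts (log2 change -0.18, adjusted p = 0.296). In KO hearts it was at 393, 354, 424 and 416 CPM when young and at 463, 406, 583 and 446 CPM when aged (0.26, unadjusted p = 0.0414, adjusted p = 0.208 by edgeR). The groups overlapped in both genotypes. The ageing change in KO minus that in WT was 0.44 (95% interval 0.09 to 0.79, adjusted p = 0.288). Psme3, the nuclear PA28 gamma activator, was at -0.12 in WT ageing and 0.00 in KO ageing, and Psmf1 at 0.08 and -0.11.

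Of the 4 members outside the standard particle, Psma8, Psme2b and Psmc3ip had the lowest mean FPKM of the 45, while Psme3ip1 stood at 17.6 FPKM, above Psmf1 and 4 of the chaperones. Psma8, the alpha subunit of the testis proteasome, had 8 to 31 counts per heart and stood at 0.804 ± 0.125, 1.37 ± 0.533, 1.16 ± 0.336 and 1.73 ± 0.602 CPM (SD, n = 4), given in the order of WT young, WT aged, KO young, KO aged. Its log2 change in WT ageing was 0.76 with an interval of 0.03 to 1.49 (unadjusted p = 0.0417, adjusted p = 0.126 by edgeR). In KO ageing it was 0.57 with an interval of -0.09 to 1.24. Psme2b was at 0.63 to 2.61 FPKM, and Psmc3ip at 2.09 to 4.34 FPKM. Counts of Psme2b were not whole in 16 libraries, of Psmf1 in 16 and of Psmc3ip in 15, so near-identical copies may have split their reads and their values are uncertain. Psme3ip1 was at 24.3 to 30.3 CPM in the 16 hearts, with log2 changes of -0.04 to -0.01 in the 4 comparisons of groups.

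Loss of Armh4 moved no member past the test at either age. In aged KO against aged WT hearts 0 of 45 were called by edgeR, DESeq2 or limma on FPKM. By edgeR 0.875% of all genes were called there (0.165% higher, 0.71% lower), by DESeq2 1.46% and by limma on FPKM 0.936%. At an unadjusted p under 0.05 by edgeR there were 3 members, beside 1454 of all 13373 genes. Those 3 were Psmc1 at -0.23 (adjusted p = 0.213), Psma5 at -0.24 (0.258) and Psma2 at -0.17 (0.412). In young KO against young WT hearts 0 of 45 were called by any of the 3 tools. Of all genes edgeR called 0.269%, DESeq2 0.822% and limma on FPKM 0.199% there. At an unadjusted p under 0.05 by edgeR there were 3 members, beside 1467 of all 13373 genes. These members were Psmd4 at 0.24 (adjusted p = 0.322), Psmd9 at 0.25 (0.361) and Psmd7 at 0.15 (0.451). All 31 core subunits had 95% intervals within 0.5 on the log2 scale, a 1.41-fold change, in both comparisons. Over all genes the share with so narrow an interval around 0 was 69.8% in aged and 68.5% in young hearts. That share was not taken over genes of like level.

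Among the inducible counterparts, Psmb9 fell with the knockout at 25 months by 1.80 ± 0.33 (SE; adjusted p = 0.0214) and Psmb8 fell by 1.58 ± 0.30 (adjusted p = 0.0284), both by edgeR. Psmb9 was at 12.0 to 45.4 CPM in aged WT and 5.18 to 9.30 CPM in aged KO hearts, and Psmb8 at 25.9 to 95.1 and 14.1 to 22.5 CPM, with no overlap in either. Both calls were lost when only the aged hearts entered the fit (adjusted p = 0.247 and 0.283). Psmb9 was also not called without WT_Aged_4, KO_Aged_115 or KO_Aged_122 (up to 0.0943), nor Psmb8 without any of these or WT_Aged_1 (up to 0.127). Psmb6 and Psmb5, the subunits they replace, were at 0.00 (95% interval -0.18 to 0.18) and 0.05 (-0.16 to 0.26) in the same comparison. Of the interferon response list, 7 of 7 genes were lower with the knockout at 25 months (adjusted p under 0.05). So were 1 of 10 macrophage genes and 2 of 4 tested neutrophil genes (median of the 4, -1.62). In the T and NK cell list 1 of 3 tested genes was called lower (median of the 3, -1.30). All 10 macrophage genes had negative changes (median -0.54). Of these, 9 were at an unadjusted p under 0.05 by edgeR, beside 1454 of all 13373 genes. The 6 tested erythroid genes were also all negative (median -0.61), with none called. The 4 atrial markers had a median of 5.17 in the other direction, with 3 at an unadjusted p under 0.05 and none called by edgeR, and their summed level was 62.7 to 412 CPM in aged WT and 67.0 to 546 CPM in aged KO hearts. What these lists contribute to the Psmb8 and Psmb9 values was not tested.

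In ageing KO hearts 0 of 45 members were called by edgeR, DESeq2 or limma on FPKM. Over all genes these tools called 7.63%, 6.61% and 7.26% there. At an unadjusted p under 0.05 by edgeR there were 2 (Psmg2 and Psme4), beside 2914 of all 13373 genes. All 31 core subunits again had intervals within 0.5 on the log2 scale, as in WT ageing. Over all genes, not matched for level, the share was 64.5% in KO ageing and 56.5% in WT ageing. The ageing change in KO minus the ageing change in WT tests whether the genotypes aged differently. It gave 0 calls in 45 by edgeR and by limma on FPKM. Over all genes edgeR called 0.464%, DESeq2 1.19% and limma on FPKM 0.721%. At an unadjusted p under 0.05 by edgeR there were 9 members, beside 1637 of all 13373 genes. The lowest p was for Psmc1, at -0.38 ± 0.11 (SE; edgeR adjusted p = 0.133), which DESeq2 called (adjusted p = 0.0209) and limma on FPKM did not (0.114). Psmd4 followed at -0.37 (edgeR adjusted p = 0.207). Intervals were wider here, and 25 of the 31 core subunits lay within 0.5.

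**Figure D4:**
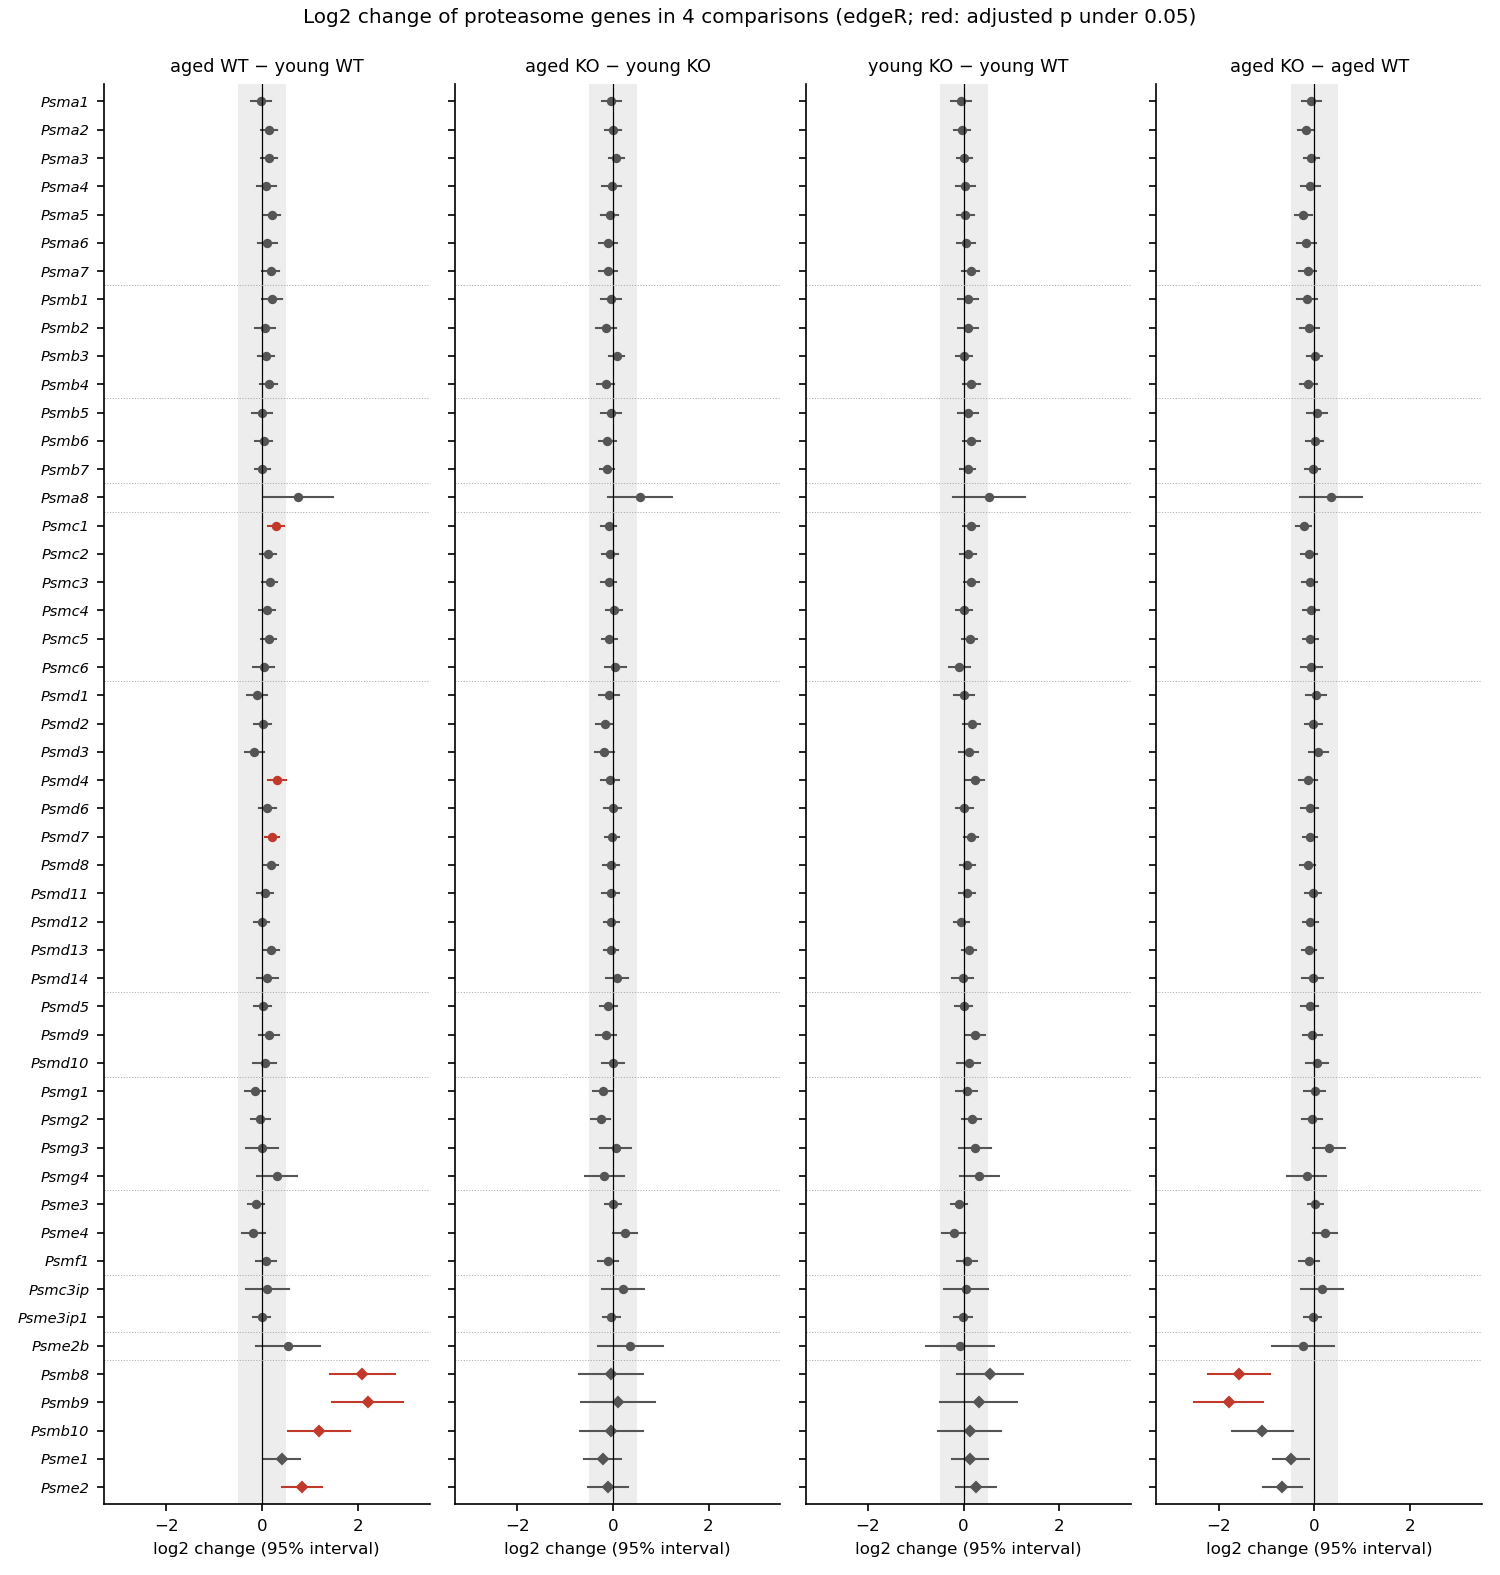
Log2 change with its 95% interval for the 45 members (circles, in the order of their roles) and the 5 inducible genes (diamonds) in 4 comparisons, with red for an adjusted p under 0.05 and grey shading from -0.5 to 0.5. The intervals of the 31 core subunits stay inside the shading in all 4 panels, and 3 members are red, all in aged against young WT hearts.

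The signs of the small changes were shared across the core subunits. In WT ageing 27 of 31 were positive with a median of 0.11, against a median of -0.01 over all genes, and in young KO against young WT hearts 26 of 31 were positive with a median of 0.09. In aged KO against aged WT hearts 26 of 31 were negative with a median of -0.09, and in the difference of the ageing changes 29 of 31 were negative with a median of -0.15. In KO ageing 25 of 31 were negative with a median of -0.05, against a median of -0.01 over all genes. On the log2(FPKM + 1) scale 21 of 31 were positive in that comparison, with a median of 0.03 against 0.05 over all genes, so the core median lay below that of all genes by 0.04 on the first scale and by 0.02 on the second. These comparisons share hearts, and subunits measured in the same hearts are not independent, so the counts describe these 16 hearts. The highest group mean was in aged WT for 19 of the 31 (27.4% of all genes) and the lowest in young WT for 19 (28.8% of all genes).

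The values of single hearts were uneven. WT_Aged_1 had the highest CPM of the 16 hearts for 20 of the 31 core subunits, and WT_Young_34 the lowest for 11. The mean centred log2 CPM of the 31 was 0.01, -0.10, -0.04 and -0.06 in young WT hearts and 0.19, -0.03, 0.08 and -0.03 in aged WT hearts. Young KO hearts stood at -0.03, 0.07, -0.04 and 0.09, and aged KO hearts at -0.01, -0.08, -0.05 and 0.03. Aged WT hearts overlapped each other group. Without WT_Aged_1 the median core change in WT ageing was 0.08, with 22 of 31 positive, and in aged KO against aged WT hearts -0.05, with 24 of 31 negative. WT_Aged_1 also had the highest macrophage score, at 1.30 against 0.56 to 0.68 in the other aged WT hearts, on the same centred scale. The link between the 2 was not tested.

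The constitutive and inducible sets did not peak in the same heart. The 5 inducible genes averaged 0.55, 0.97, 1.64 and 0.00 in WT_Aged_1, WT_Aged_4, WT_Aged_5 and WT_Aged_12, so WT_Aged_5 was highest. Their spread in aged WT hearts was also of another size: the median coefficient of variation was 53.3% over the 5 genes, against 9.92% over the 31 core subunits. For the core subunits it was 5.12% in young WT, 6.11% in young KO and 5.30% in aged KO hearts. These values lay below the median over all genes in each group (9.38% to 13.9%). All genes included ones with few counts, such as Psma8 at 8 to 31 per heart, and no set of like level was compared.

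**Figure D5:**
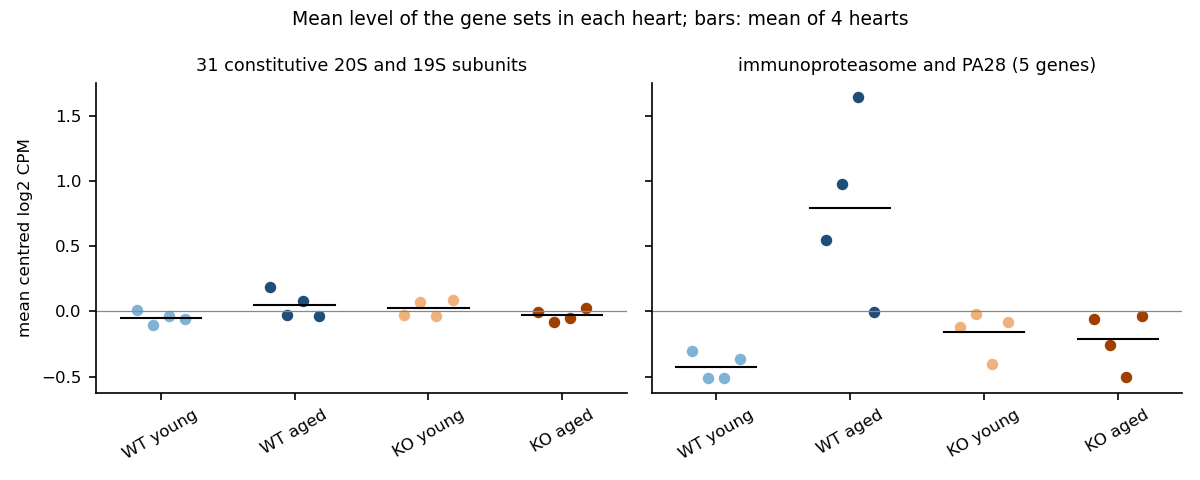
Mean centred log2 CPM per heart of the 31 core subunits (left) and of the 5 inducible genes (right) on a shared axis, with bars at the mean of 4 hearts. The core values lie between -0.10 and 0.19, and the inducible values of the aged WT hearts reach 1.64.

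Other genes of the pathway were counted from lists chosen by their known roles, and each count in WT ageing stands beside 21.7% of all genes called (11.8% higher, 9.93% lower). Of 11 tested genes that control proteasome transcription, 2 fell in WT ageing and none rose: Nfya, the DNA-binding subunit of NF-Y, by 0.32 (CPM of 29.5, 27.6, 25.5 and 27.1 in young and 20.6, 22.2, 23.3 and 21.7 in aged WT hearts; adjusted p = 0.00545), and Nfe2l2, the oxidative stress regulator, by 0.28 (adjusted p = 0.00687). Nfya was not called by limma on FPKM, nor Nfe2l2 when only WT hearts entered the fit. Nfe2l1, which drives the recovery of proteasome genes when the proteasome is inhibited, was at -0.12 (95% interval -0.35 to 0.12). Of 11 tested cofactors outside the Psm names, Pomp alone rose by edgeR, and DESeq2 and limma on FPKM also called Sem1. Of 6 ubiquitin and E1 genes, Ubb rose by 0.26 (adjusted p = 0.0370), a call lost in 5 of the 16 fits that left out 1 heart (up to 0.109), with no filter and when only WT hearts entered the fit.

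Among 12 shuttle and p97 genes, Sqstm1, the autophagy receptor p62, rose with age in WT hearts by 0.42 ± 0.09 (SE; adjusted p = 0.00170). It was also higher in young KO than in young WT hearts, by 0.55 ± 0.09 (adjusted p = 0.0115): 526, 563, 532 and 551 CPM against 342, 385, 372 and 382 CPM. That second call was lost without WT_Young_39 or KO_Young_31 (adjusted p up to 0.0580). Of 12 muscle ubiquitin ligases, Asb2 fell in WT ageing by 0.54 (adjusted p = 0.000948), while Fbxo32 and Trim63, the atrophy ligases, were at 0.38 (adjusted p = 0.0582) and 0.17 (0.168). DESeq2 and limma on FPKM called Fbxo32. Over the 52 tested genes of these 5 lists, edgeR called 6 in WT ageing, DESeq2 11 and limma on FPKM 8. The shares over all genes were 21.7%, 17.5% and 20.2% in the same order. In young KO against young WT hearts edgeR called Sqstm1 alone of the 52 (7 at an unadjusted p under 0.05, beside 1467 of all 13373 genes). There limma on FPKM called Sqstm1 and Maff, and DESeq2 called those 2 with Nfe2l2, Trim63 and Ubb. Over all genes the shares called were 0.269% by edgeR, 0.199% by limma on FPKM and 0.822% by DESeq2. By edgeR there were 0 calls in aged KO against aged WT hearts (4 at an unadjusted p under 0.05), 0 in KO ageing (9) and 0 in the difference of the ageing changes (5). DESeq2 called Mafg and Pomp, Mdm2, and none in the same order, and limma on FPKM called none. Over all genes the shares in that order were 0.875%, 7.63% and 0.464% by edgeR and 1.46%, 6.61% and 1.19% by DESeq2. For limma on FPKM they were 0.936%, 7.26% and 0.721%. An unadjusted p under 0.05 by edgeR was reached by 1454, 2914 and 1637 of all 13373 genes.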

How the data were processed

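RNA of 16 hearts was measured, 4 in each group. Hearts were grouped by their genotype and age labels. For young WT hearts the sample title and the genotype label differ in their letters, and the label was followed. The count values deposited by the authors are expected counts of genes, not all whole. The FPKM values deposited by the authors are scaled for gene length and sequencing depth. HISAT, Bowtie2 and the build GRCm39 are named, per the submitters' processing notes, without versions. The counting program and its use of strand are not given in the sources used here, so overlapping genes on opposite strands may share reads.

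Expected counts were rounded and tested with edgeR 4.0.16 in R 4.3.3 (filterByExpr, TMM, robust quasi-likelihood fit of all 16 hearts, 12 residual degrees of freedom). CPM were scaled by TMM. Intervals for log2 changes are at 95%. Scores used log2 CPM with a prior count of 2. FPKM ratios of catalytic pairs were compared by exact permutation over hearts, adjusted over 12 comparisons. Alternatives were RLE scaling, DESeq2 1.42.0, no filter on low counts, limma 3.58.1 on log2(FPKM + 1) and log2(FPKM + 0.1) of genes with a group mean FPKM of at least 1, fits of only the groups compared, leaving out each heart, CPM in the ratios, and a fit without robust estimation, which was chosen after seeing the data. The test was checked on simulated data with the same dispersion for every gene and group. That check does not cover groups of unequal spread, such as the aged WT hearts here.

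The members and the gene lists were chosen with earlier results of these data known. Named genes were members called in any comparison, the 3 catalytic subunits, Psma8, Psmc3ip and Psme3ip1, and up to 4 called genes of each pathway list per comparison; other names serve to describe a class and were chosen after their values were seen. 1 gene of the planned interferon response list is not reported here and was left out of its sums and counts. Promoter sequences are RefSeq's on GRCm38.p6, not the build of the authors, and no coordinates were compared between them. A comparison of protein sequences was planned and was not done here. Hearts of a group differed beyond sampling noise (chi-square per degree of freedom at least 3.67), so all counted as replicates.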

Additional observations from a re-analysis of the deposited data

Results flagged for a closer look

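Psmd7 in young WT hearts had 1 heart apart from the rest. WT_Young_34 stood at 109 CPM and the other 3 hearts at 117 to 118 CPM, so the gap to the nearest heart took 0.873 of the whole range, above the critical value of Dixon's test for 4 samples. Chance gives such a gap in about 1 in 20 groups, and 92 groups of values were checked. Gaps above the critical value also occurred in members that were not flagged. They were Psme3 in aged WT (0.922), Psmf1 in aged KO (0.907) and Psmd5 in young KO hearts (0.877). Psma2 had them in aged WT (0.852), young KO (0.895) and aged KO hearts (0.835). Without WT_Young_34 the rise of Psmd7 in aged WT hearts was no longer called.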

How the results depend on the processing

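No paired analysis was possible because the groups share no animal number. Members called in WT ageing numbered 3 with RLE scaling, 4 with DESeq2 and with no robust estimation, 2 with no filter and with only WT hearts fitted, 7 with limma on log2(FPKM + 1), 7 on log2(FPKM + 0.1), and 1 to 5 when 1 heart was left out. Over all genes those settings called 15.4% to 21.9%. The difference of the ageing changes gave 1 call with DESeq2, which called 1.19% of all genes. It gave 0 in the other alternatives run, for which the cause was not tested. The remaining 3 comparisons gave 0 calls in every alternative run. The median of the 45 members was 0.10 in WT ageing (0.16 and 0.17 on the FPKM scales, 0.06 to 0.14 with 1 heart left out) and -0.05 in KO ageing (0.04 on both FPKM scales, -0.07 to -0.02 with 1 heart left out). On the FPKM scales the median of all genes was 0.04 to 0.05 in both ageing comparisons, against -0.01 in the main analysis. Catalytic pair ratios with 1 heart left out kept within the spread between hearts, but 4 against 3 hearts cannot give an exact p below 0.0571. At these depths the core subunits' intervals lay within 0.5 on the log2 scale in the 4 comparisons of groups, and for 25 of 31 in the difference of the ageing changes. Those of Psma8, Psme2b, Psmc3ip, Psmg4, Psmg3 and Psme4 were wider in at least 1 of the 4.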
